A study of Mus musculus with 5 samples.

Results

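Kinesin mRNAs and centromere protein mRNAs were followed in sequencing libraries made from the plasma membrane of EL4 cells, a mouse T lymphoma line. Members were the protein-coding genes whose symbol is Kif with a digit or Cenp with a letter after it. This gave 39 kinesin genes and 21 centromere protein genes, 60 of the 55385 genes in the count tables. Left out by this rule are the Kifc genes, which also code for kinesin motors. The libraries were made by Surface-seq, in which cell membrane is wrapped around polymer nanoparticles so that its outer side stays outside, and the RNA on the particles is sequenced. In variation A (libraries A1, A2 and A3) RNA was extracted from the whole membrane, so that RNA on either side could enter the library. In variation B (libraries B1 and B2) the 3′ adaptor was joined to RNA while it was still on the particles, which favours RNA that faces outward. No drug or genetic change separates the 5 libraries. The paper describes phenol extraction and end repair before ligation for extracted RNA. For ligation on the particles it describes silane beads, with RNA input and PCR cycles increased. The comparison of B with A therefore covers these steps as well as the outside ligation, and their parts were not tested apart.

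Kinesins are motor proteins that use ATP to move along microtubules; some carry membrane cargo and organelles in cells of any stage, and others build the mitotic spindle, move chromosomes or close cytokinesis. Centromere proteins mark the centromere through a special histone and hold an inner network there all through the cell cycle. To this network an outer layer is added in mitosis so that spindle microtubules can attach. Cenpj and Cenpv carry the name but were placed in none of these parts. Many mRNAs of the mitotic members are known to be abundant in dividing cells such as a lymphoma line.

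The name rule was checked against the coding sequence, by searching the longest coding transcript of each member for the P-loop, the nucleotide-binding loop of motor domains (a glycine, any 4 residues, a glycine, a lysine, then a serine or a threonine). It was found in 38 of 39 kinesin genes, against 933 of 21893 protein-coding genes (4.26%). The exception was Kif1bp, a KIF1-binding protein with no motor, which the rule takes by its name. Among the 21 centromere protein genes 1 held the pattern, Cenpe, which is itself a kinesin motor of the outer kinetochore. The coding stretch around the loop is shown for the 3 kinesin genes called below, for Cenpe, and for 3 other kinesin genes. The values of the latter vary with library or are high per length. All share the pattern and differ in base composition, but residues of the loop also differ between them, so base choice and residues vary together. Each window has 48 bases of coding exon, read 5′ to 3′ on the gene's strand, with the 24 bases of the loop in capitals; sequences are from GENCODE M21 transcripts and positions are on GRCm38.
Kif20b: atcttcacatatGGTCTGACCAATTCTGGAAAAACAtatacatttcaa
Kif11: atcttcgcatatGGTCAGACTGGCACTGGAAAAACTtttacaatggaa
Cenpe: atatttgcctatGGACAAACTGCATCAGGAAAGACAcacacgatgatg
Kif3b: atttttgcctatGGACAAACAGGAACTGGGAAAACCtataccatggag
Kif16b: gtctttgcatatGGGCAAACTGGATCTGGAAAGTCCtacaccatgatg
Kif4: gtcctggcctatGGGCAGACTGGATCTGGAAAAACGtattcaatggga
Kif1c: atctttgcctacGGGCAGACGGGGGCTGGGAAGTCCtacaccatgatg

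The Kif20b window lies in exon 5 at chr19:34929774-34929821 on the plus strand, and that of Cenpe in exon 4 at chr3:135216551-135216598 on the plus strand. Those of Kif3b (exon 2, chr2:153316554-153316601, plus strand) and Kif16b (exon 4, chr2:142857320-142857367, minus strand) share a chromosome. The Kif4 window is in exon 3 at chrX:100633853-100633900 and the Kif1c window in exon 5 at chr11:70703792-70703839, both on the plus strand. The Kif11 window joins 2 exons between chr19:37384632 and 37384771 on the plus strand. Their GC content ran from 31.2% in Kif20b and 39.6% in Kif11, through 41.7% in Cenpe and Kif3b, 45.8% in Kif16b and 50.0% in Kif4, to 58.3% in Kif1c.

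Depth differed between the variations. The A libraries held 2301017 (A1), 4502174 (A2) and 1187117 (A3) counts and the B libraries 21862003 (B1) and 22980172 (B2), while counts on protein-coding genes were 906049, 1017976 and 261148 against 13914715 and 14837243. At 3 counts, the floor used here, a library could show 1.49 (A1), 1.17 (A2), 4.44 (A3), 0.0732 (B1) or 0.071 (B2) counts per 1000000 (CPM) on the TMM scale, in which each total is multiplied by a normalization factor. Kinesin genes with at least 10 counts numbered 25 (A1), 25 (A2), 15 (A3), 32 (B1) and 31 (B2). For centromere protein genes these numbers were 15, 12 and 4 against 21 and 21. A member not seen in A3 may therefore be below what this library could detect. Library A1 stood apart from A2 and A3. The chi-square of counts over genes per degree of freedom was 125 for A1 and A2 and 85.9 for A1 and A3. For A2 and A3 it was 11.3. For B1 and B2 it was 45.1, but this value grows with depth, so it cannot be set against those of variation A. None of these pairs was a duplicate. Nothing in the labels says that the libraries came from separate cultures, so p-values measure the spread between these libraries, which may be technical.

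The label of the cell line was checked first. Of 9 T lymphocyte markers 9 were counted in all 5 libraries, and their summed level, in counts per kb of exon scaled so that protein-coding genes sum to 1000000, was 3590 (A1), 3400 (A2), 3290 (A3), 5640 (B1) and 5180 (B2), with Thy1, a T-cell surface glycoprotein, the most abundant. Markers of other cells summed to at most 33.4 on this scale in any library, against at least 3290 for T lymphocyte markers. The 33.4 was for myeloid markers in B2, where the members Cenpa and Kif3a stood at 30.3 and 36.4. The 4 B lymphocyte markers summed to 0 in A1, A3 and B2, to 3.15 in A2 and to 2.53 in B1, with Cd79b highest and 1 marker at 0 in all libraries. The 6 myeloid markers summed to 0 (A1), 11.7 (A2), 6.18 (A3), 21.4 (B1) and 33.4 (B2), with Elane and Mpo at 0 throughout. Their most abundant gene was Lyz2, a lysozyme of macrophages and neutrophils. It had 0 counts in each library of variation A and 73 and 133 counts in B1 and B2. On the TMM scale this was 1.78 and 3.15 CPM, above the floors of A1 and A2 and below the 4.44 CPM of A3. The edgeR test described below called Lyz2 higher (log2 fold change 8.45, SE 2.19, edgeR adjusted p = 0.0365), and DESeq2 did not. Csf1r went the other way, with 0, 2.72 and 2.96 CPM in A against 0.122 and 0 CPM in B, from at most 7 counts. Itgam and Cd14 were also higher in A2 than in either B library, at 4 and 1 counts in A2. The part of Lyz2 in the results for members was not tested. Erythroid markers summed to at most 6.33, epithelial markers to at most 4.11 and fibroblast markers to at most 1.86 in any library. Neuron markers summed to 4.99, 8.74 and 14.6 in variation A and to 2.64 and 2.82 in variation B.

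Each family took a larger share of protein-coding counts in both B libraries than in any A library. The summed level of the 9 T lymphocyte markers above was also higher in both B libraries, at 5640 and 5180 against 3290 to 3590 in A. That of the neuron markers was lower in both. Whether the share of either family differed from that of other genes in this was not tested. Kinesin genes took 0.205% in A1 (Wilson 95% interval 0.196 to 0.214), 0.214% in A2 (0.206 to 0.224), 0.200% in A3 (0.184 to 0.218), 0.339% in B1 (0.336 to 0.342) and 0.331% in B2 (0.328 to 0.334). Centromere protein genes took 0.0677% in A1 (0.0625 to 0.0732), 0.0533% in A2 (0.0490 to 0.0580), 0.0548% in A3 (0.0465 to 0.0645), 0.138% in B1 (0.136 to 0.140) and 0.137% in B2 (0.135 to 0.139). Both libraries of variation B lay above all 3 of variation A in each family, and the intervals, which cover counting error only since reads are not independent molecules, did not meet. The kinesin share was 0.206% ± 0.00737 (SD, n = 3) in A and 0.335% ± 0.00572 (SD, n = 2) in B, a difference of 0.129 percentage points and a ratio of 1.62. The centromere protein share was 0.0586% ± 0.00789 (SD, n = 3) against 0.137% ± 0.000984 (SD, n = 2), a difference of 0.0788 points and a ratio of 2.34. The exact two-sided permutation test over libraries gave p = 0.1 for each, the smallest value that 3 against 2 libraries allow. With counts divided by exon length before the sum, the ratios were 1.58 for kinesins and 1.68 for centromere proteins. Without the most counted member of each library they were 1.62 and 1.94. As shares of all counts they were 3.72 and 5.2, and of counts without rRNA and mitochondrial genes 2.36 and 3.31. The size of the ratio thus depended on the denominator. Cenpe and Cenpf together held 268, 91 and 34 of the 613, 543 and 143 centromere protein counts in A1 to A3. In B1 and B2 they held 11684 and 12380 of 19208 and 20275. In the test of single genes below, 10 centromere protein genes had a log2 fold change above 0 and 11 below, with a median of -0.01. The larger share is therefore not a rise of most members of that family. As these are bulk libraries of membrane particles, the shares do not tell how many cells held an mRNA or how much each held.

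**Figure D1:**
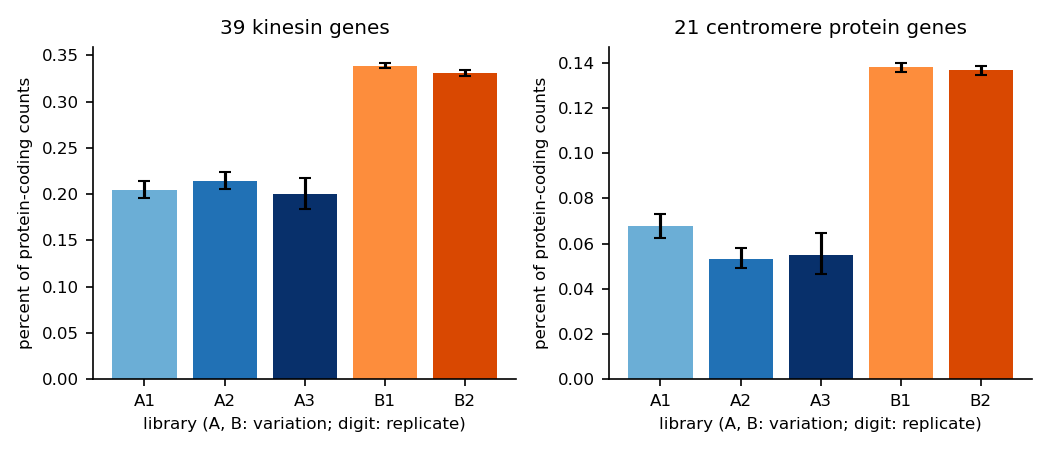
Bars give the percent of protein-coding counts (y axis, from 0) on 39 kinesin genes and on 21 centromere protein genes in each of the 5 libraries (x axis), with Wilson 95% intervals for counting error. Kinesin shares of variation A lay between 0.200% and 0.214% and those of variation B at 0.331% and 0.339%; centromere protein shares lay between 0.0533% and 0.0677% and at 0.137% and 0.138%.

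Single members were compared with edgeR's quasi-likelihood test on TMM-scaled counts with Benjamini-Hochberg adjustment over all 10287 genes that passed the filter on low counts. Of these, 1135 (11.0%) were called higher in variation B and 1276 (12.4%) lower, where a call needed an adjusted p below 0.05 and a change of more than 2-fold. The filter kept 30 of 39 kinesin genes and 21 of 21 centromere protein genes. Among kinesins, 3 were called higher (Kif16b, Kif3b and Kif4) and 0 lower, where 9 and 1 had an unadjusted p under 0.05 and DESeq2 called 4 higher and 0 lower. Among centromere proteins, 4 were called higher (Cenpe, Cenpf, Cenph and Cenpk) and 1 lower (Cenpa), and DESeq2 also called 4 and 1. For kinesins, 3 of 30 is near the 11.0% of all genes; the difference of either family from all genes was not tested. The median log2 fold change was 0.45 over kinesin genes tested and -0.01 over centromere protein genes tested, against 0.05 over all genes tested. Scaling by library totals moved the median of all genes to 1.50, and then 23 kinesin genes and 11 centromere protein genes were called higher and 0 of either lower, where 55.1% of all genes tested were called higher and 2.93% lower, with 95.0% of all calls in the higher direction against 47.1% under TMM. Relative to the median of all genes, the kinesin median was 0.41 under TMM, library totals, RLE and upper-quartile factors alike, and the centromere protein median was -0.06, and 0.01 with library totals; these scalings move all genes together. The 19 alternatives varied scaling, filter, model, trend, depth or libraries. Over them the kinesin value ran from 0.15 with the length trend removed to 1.42 with DESeq2. The centromere protein value ran from -0.26 with no filter to 1.01 with DESeq2, and was 0.57 without A1 and 0.91 after thinning to the smallest total. Both values are thus loosely determined, but the genes tested changed too. With DESeq2 the median was -0.91 over 25327 genes, and 0.51 over kinesin genes and 0.1 over centromere protein genes. Thinning left 13 centromere protein genes tested. The number of calls changed with the libraries used, over all genes as over members. Without A1, 9 kinesin genes were called higher and 1 lower and 7 centromere protein genes higher and 2 lower, where 20.8% and 15.0% of all genes tested were called. Without A2, A3, B1 or B2 in turn, 0 kinesin genes were called by edgeR in either direction, and 7, 4, 5 and 3 were higher at an unadjusted p under 0.05. Centromere protein genes called higher then numbered 0, 1 (Cenph), 0 and 0, with 5 higher at an unadjusted p under 0.05 in each, and Cenpa was no longer called. Of all genes tested in these fits 3.46%, 3.57%, 1.92% and 1.55% were called higher and 3.64%, 3.86%, 2.30% and 1.32% lower, so that calls were scarcer over all genes too. Of the 19 alternatives, Cenpe and Cenph lost their call in 4, Kif16b, Kif4 and Cenpf in 5, Kif3b in 7, Cenpk in 8 and Cenpa in 9. Thinning to the smallest total was among them for Kif3b (1.15, edgeR adjusted p = 0.0614), Cenpk (2.18, edgeR adjusted p = 0.0958) and Cenpa (-1.43, edgeR adjusted p = 0.0518), of which the last 2 kept their fold change.

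**Figure D2:**
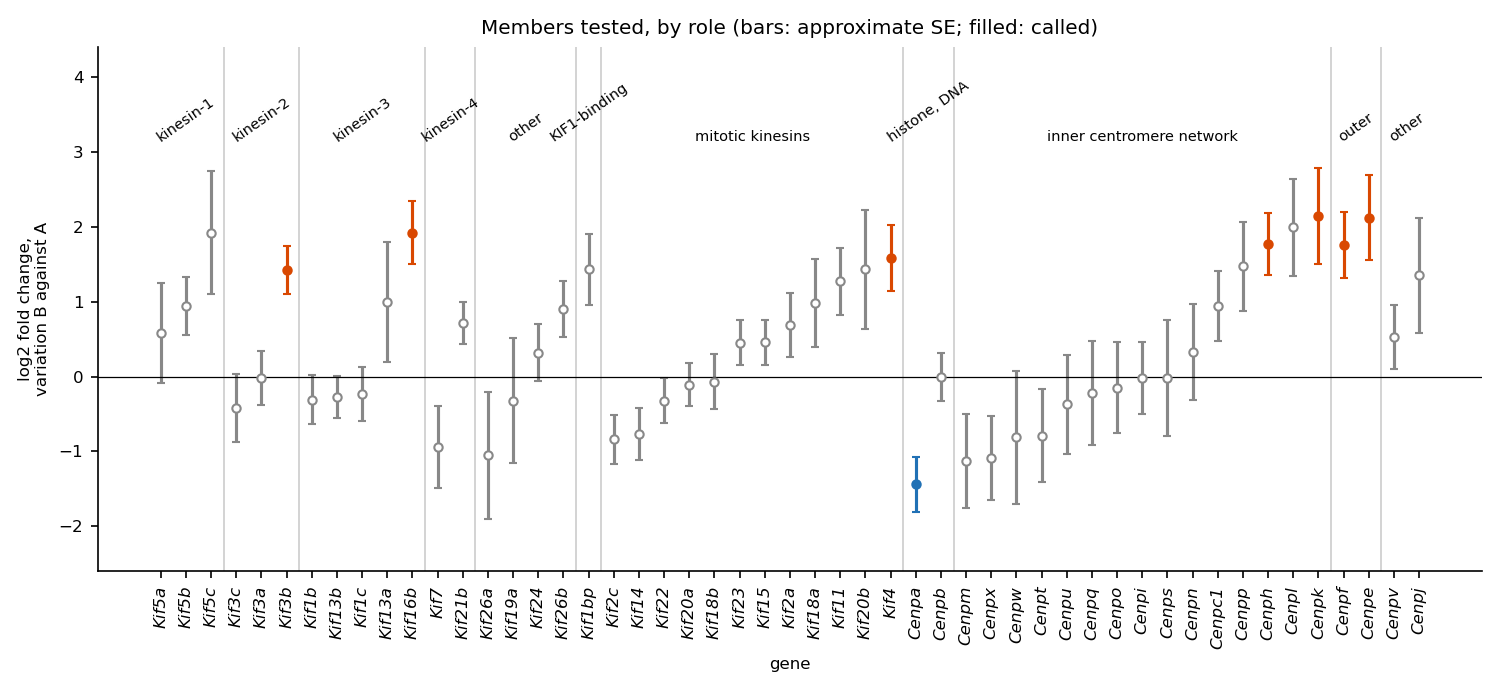
Points give the log2 fold change of variation B against variation A (y axis) for the 51 members tested, grouped by role along the x axis, with bars of the approximate standard error; filled points were called, in orange when higher and in blue when lower. The 7 members called higher lie between 1.42 and 2.14 and Cenpa lies at -1.44.

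The transport kinesins come first. Kif5b, the kinesin-1 heavy chain found in most tissues, which carries vesicles and mitochondria outward, had 235, 137 and 35 counts in the A libraries, by replicate, and 5839 and 6104 in the B libraries. On the TMM scale this was 116, 53.3 and 51.8 CPM against 143 and 144 CPM. Both B libraries were above every A library, with A1 the nearest, and the log2 fold change of 0.94 did not pass the test (SE 0.39, edgeR adjusted p = 0.108). Of the 19 alternatives 2 called it, library totals and the fit without A1 (1.56, edgeR adjusted p = 2.94e-05), whereas 0.04 was left with the trend of counts over transcript GC removed (edgeR adjusted p = 0.904), an alternative chosen after the data were seen. The brain-enriched kinesin-1 chains Kif5a and Kif5c were low. Kif5c had 1, 5 and 1 counts in A and 97 and 321 in B1 and B2, so that the libraries of variation B themselves differed by 3.21 times in CPM. Of the 3 kinesin-1 genes tested 0 were called by edgeR or DESeq2, and 2 were higher at an unadjusted p under 0.05.

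Kinesin-2 motors work as heterotrimers in cilia and on vesicles. Kif3b (ENSMUSG00000027475.9, chr2:153291413-153333390, plus strand, GRCm38), a motor subunit of that complex, had 21, 24 and 7 counts in A1 to A3 and 1009 and 1218 in B1 and B2. This was 10.4, 9.34 and 10.4 CPM against 24.6 and 28.8 CPM on the TMM scale. The 3 libraries of variation A were close together and well below both of variation B, and the log2 fold change was 1.42 (SE 0.32, edgeR adjusted p = 0.0173, 2.68-fold). Its partner subunit Kif3a had 9.92, 8.95 and 8.89 CPM in A and 8.96 and 9.33 CPM in B, a log2 fold change of -0.02 (edgeR adjusted p = 0.967). The 2 subunits thus differed in fold change, but the difference between them was not tested. Kif17, a ciliary motor known from neurons, had 15 counts in B1 and 0 in the other libraries.

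Kinesin-3 motors carry vesicles and endosomes over long distances. Kif16b (ENSMUSG00000038844.10, chr2:142617474-142901531, minus strand), which moves early endosomes through a lipid-binding domain, had 24, 14 and 3 counts in A and 1187 and 1228 in B. On the TMM scale it stood at 11.9, 5.45 and 4.44 CPM against 29.0 and 29.1 CPM, with no overlap. Its log2 fold change was 1.92 (SE 0.42, edgeR adjusted p = 0.016, 3.78-fold), and 2.59 without A1. Kif1c, a vesicle motor, was the most counted kinesin in A2 and A3, with 130, 350 and 82 counts in A and 3970 and 3633 in B. In CPM it read 64.5, 136 and 122 against 96.9 and 86.0, so that B lay inside the range of A and the log2 fold change of -0.23 (SE 0.36, edgeR adjusted p = 0.662) did not pass. Kif1b, which carries mitochondria and synaptic vesicle precursors, had 46.6, 86.7 and 65.2 CPM in A and 53.9 and 53.3 CPM in B (log2 fold change -0.31, SE 0.33). The neuronal motor Kif1a had 0 counts in all 5 libraries, which at 3 counts allows at most the floors given above.

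Among kinesin-4 and other non-mitotic kinesins 0 were called in either direction by edgeR or DESeq2, of 6 tested, and 2 were higher and 0 lower at an unadjusted p under 0.05. Kif21b, a kinesin-4 motor known from lymphocytes and neurons, had 142, 235 and 48 counts in A and 5329 and 5249 in B. In CPM this was 70.4, 91.4 and 71.1 against 130 and 124, without overlap, at a log2 fold change of 0.71 (SE 0.28, edgeR adjusted p = 0.0939). With the GC trend removed it was called higher at 1.38 (edgeR adjusted p = 0.00339), whereas with the trend over exon length removed it was 0.17 (edgeR adjusted p = 0.695). The KIF1-binding protein gene Kif1bp, which is not among these 6, read 15.9, 4.67 and 8.89 CPM in A and 23.7 and 29.0 CPM in B. Its log2 fold change was 1.43 (SE 0.47, edgeR adjusted p = 0.0582), and 7 of 19 alternatives called it higher. It was 2.31 without A1 (edgeR adjusted p = 0.000302) and 1.05 without A2 (edgeR adjusted p = 0.159). Kif26b, known from kidney development, had 12.9, 20.2 and 8.89 CPM in A and 29.4 and 25.9 CPM in B, without overlap (log2 fold change 0.90, SE 0.37, edgeR adjusted p = 0.104). Kif24, a motor of centrioles, had 14.4, 7.78 and 14.8 CPM against 15.9 and 13.7 CPM. Kif12, Kif1a, Kif28 and Kif2b had 0 counts in all libraries, and Kif21a, Kif27 and Kif6 had 2 counts each over all 5.

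Mitotic kinesins were 12 of the 39 and were all tested, with a median log2 fold change of 0.45 and 7 values above 0. Kif4 (ENSMUSG00000034311.3, chrX:100625737-100727214, plus strand), a chromosome-bound motor that shapes chromosome arms and the midzone, had 48, 22 and 6 counts in A and 1651 and 1906 in B. This was 23.8, 8.56 and 8.89 CPM on the TMM scale in A and 40.3 and 45.1 CPM in B. A1 lay between the other A libraries and variation B, and the log2 fold change was 1.58 (SE 0.44, edgeR adjusted p = 0.0357, 2.99-fold), and 2.42 without A1. An exon stretch of 832 of its 5514 bases (15.1%) overlaps Pdzd11 on the other strand, where the counting dropped reads that touched both genes; Pdzd11 was itself called higher. Reads with several alignments were dropped too, and the annotated pseudogenes of Kif4 and Kif22 had 1 and 0 counts over all 5 libraries.

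Kif11 (ENSMUSG00000012443.4, chr19:37376403-37421859, plus strand), the tetrameric motor that pushes spindle poles apart, was the most counted kinesin in A1, B1 and B2. It had 258, 115 and 34 counts in A and 7422 and 7621 in B, or 128, 44.7 and 50.4 CPM against 181 and 180 CPM. Its log2 fold change of 1.27 (SE 0.45) did not pass the edgeR test (adjusted p = 0.0718), was called by DESeq2, and was 2.07 without A1 (edgeR adjusted p = 4.49e-06) but 0.49 with the GC trend removed (edgeR adjusted p = 0.17). Kif20b (ENSMUSG00000024795.11, chr19:34922361-34975745, plus strand), a midbody motor of late cytokinesis, varied widely among the A libraries. It had 103, 22 and 1 counts in A and 2594 and 2358 in B, or 51.1, 8.56 and 1.48 CPM against 63.3 and 55.8 CPM, where the value of A3 is below the 4.44 CPM that it could show at the floor. A1 was close to variation B, and the log2 fold change was 1.43 (SE 0.79, edgeR adjusted p = 0.21). It was 3.24 without A1 (edgeR adjusted p = 2.06e-05), the 1 of 19 alternatives that called it, 1.04 without A2 and 0.62 with the GC trend removed (edgeR adjusted p = 0.426 and 0.378).

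A1 was also the highest A library for Kif2a (35.2, 14.0 and 14.8 CPM against 39.2 and 31.2 CPM) and Kif18a (8.43, 3.50 and 1.48 CPM against 6.69 and 12.95 CPM), and both were called higher without A1. Kif23, Kif20a, Kif2c and Kif14 were not. Kif23, the central spindle motor of cytokinesis, had 25.3, 23.7 and 25.2 CPM in A and 28.7 and 38.6 CPM in B, and the ratio of the highest to the lowest A library was 1.07. Kif20a, a midzone motor, had 47.1, 35.4 and 35.6 CPM in A and 38.0 and 35.6 CPM in B. The log2 fold changes of 0.45 (SE 0.30) and -0.11 (SE 0.29) did not pass. Of the Kif20a exons 29.3% overlap Cdc23 on the other strand. Kif2c, which takes microtubules apart at centromeres, had 42.2, 73.5 and 48.9 CPM in A and 31.4 and 30.2 CPM in B, all of B below all of A, at a log2 fold change of -0.84 (SE 0.33, edgeR adjusted p = 0.0928). Kif14, a motor of the midbody, had 46.6, 38.1 and 77.0 CPM in A and 30.2 and 31.6 CPM in B (log2 fold change -0.77, SE 0.35, edgeR adjusted p = 0.142), and was called lower in 1 of 19 alternatives, with the GC trend removed (-1.25, edgeR adjusted p = 0.0322).

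Over the kinesin genes tested, 12 of 30 had both B libraries above all A libraries on the TMM scale and 3 had both below, against 31.2% and 26.7% of the 10287 genes tested. Of centromere protein genes these were 8 and 3 of 21.

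**Figure D3:**
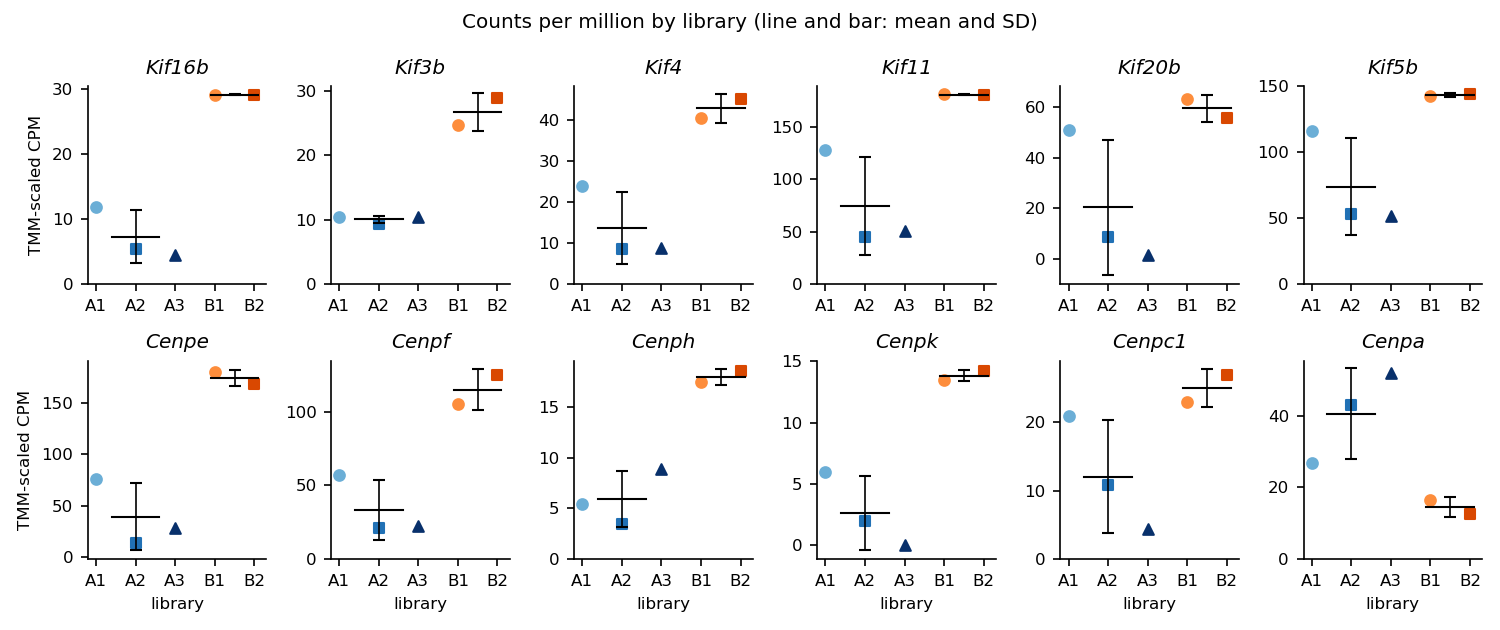
Each panel gives the TMM-scaled CPM (y axis) of 1 member in the 5 libraries (x axis), with black lines and bars for the mean and SD of each variation. Kif3b has its 3 A libraries at 9.34 to 10.4 CPM, whereas Kif20b runs from 1.48 to 51.1 CPM in A with B at 55.8 and 63.3 CPM, and Cenpa is lower in B.

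Centromere proteins are described from the histone outward. Cenpa (ENSMUSG00000029177.9, chr5:30666777-30674830, plus strand), the histone H3 variant that marks centromeres, had 54, 111 and 35 counts in A and 682 and 536 in B. This was 26.8, 43.2 and 51.8 CPM on the TMM scale in A and 16.6 and 12.7 CPM in B. Both B libraries were below every A library, and the log2 fold change was -1.44 (SE 0.37, edgeR adjusted p = 0.0261, 2.72-fold lower). It was no longer called when A2, A3, B1 or B2 was left out (edgeR adjusted p from 0.0943 to 0.228), though the log2 fold change stayed at -1.29, -1.20, -1.67 and -1.28. Cenpb, which binds a short motif in centromere repeats, had 25.3, 43.2 and 40.0 CPM in A and 35.8 and 35.6 CPM in B, inside the range of A, at a log2 fold change of -0.01 (SE 0.32).

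The inner network that stays at centromeres had 15 genes, of which 2 were called higher and 0 lower, with a median of -0.02. At an unadjusted p under 0.05, 4 were higher and 0 lower, and DESeq2 called 2 and 0. Of all genes tested 11.0% were called higher and 12.4% lower, and the difference of the network from these was not tested. Cenph (ENSMUSG00000045273.8, chr13:100759674-100775899, minus strand) had 11, 9 and 6 counts in A and 716 and 785 in B, or 5.46, 3.50 and 8.89 CPM against 17.5 and 18.6 CPM. Cenpk (ENSMUSG00000021714.15, chr13:104228611-104252392, plus strand), its partner in a subcomplex, had 12, 5 and 0 counts in A and 554 and 599 in B, or 5.95, 1.95 and 0 CPM against 13.5 and 14.2 CPM. Neither gene overlapped between variations, though A3 could show 4.44 CPM at the floor and its 0 for Cenpk is within that. The log2 fold changes were 1.77 for Cenph (SE 0.42, edgeR adjusted p = 0.0213) and 2.14 for Cenpk (SE 0.64, edgeR adjusted p = 0.0422). Without A1 they were 1.99 and 3.32. Of the Cenpk exons 4.45% overlap Ppwd1 on the other strand, which was also called higher. With the GC trend removed neither was called, at 1.11 and 1.03 (edgeR adjusted p = 0.0784 and 0.131).

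Cenpc1, the scaffold that joins the histone to the kinetochore, had 42, 28 and 3 counts in A and 942 and 1138 in B, or 20.8, 10.9 and 4.44 CPM against 23.0 and 26.9 CPM. A1 was near variation B, and the log2 fold change of 0.94 (SE 0.47, edgeR adjusted p = 0.168) was called without A1 (1.57) but was 0.01 with the GC trend removed (edgeR adjusted p = 0.987). Cenpx, a histone-fold protein that also works in DNA repair, had 6.45, 22.2 and 10.4 CPM in A and 4.39 and 8.28 CPM in B, at a log2 fold change of -1.09 (SE 0.56, edgeR adjusted p = 0.179). It was called without A1 (-1.39), the 1 of 19 alternatives to do so, and was -0.25 without A2 (edgeR adjusted p = 0.835) and -0.52 with the GC trend removed. Cenpt, another histone-fold protein that reaches toward the outer kinetochore, had 4.96, 3.89 and 4.44 CPM in A and 1.49 and 3.60 CPM in B. Its log2 fold change of -0.79 (SE 0.62) became -0.30 without B1 and -1.57 without B2, where 1 library of variation B is left. The B libraries differed for several network genes: B2 over B1 ran from 0.323 for Cenpn, with 291 and 97 counts, to 2.95 for Cenpq, with 78 and 237 counts.

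The outer kinetochore genes were both called. Cenpe (ENSMUSG00000045328.11, chr3:135212537-135273611, plus strand), the motor that carries chromosomes to the spindle equator, had 153, 37 and 19 counts in A and 7358 and 7104 in B. This was 75.9, 14.4 and 28.1 CPM on the TMM scale against 180 and 168 CPM. Cenpf (ENSMUSG00000026605.14, chr1:189640606-189688086, minus strand), a large coiled-coil protein of the kinetochore corona, had 115, 54 and 15 counts in A and 4326 and 5276 in B, or 57.0, 21 and 22.2 CPM against 106 and 125 CPM. In each gene A1 was the highest library of variation A and still below both of variation B. The log2 fold changes were 2.12 for Cenpe (SE 0.57, edgeR adjusted p = 0.0316, 4.35-fold) and 1.76 for Cenpf (SE 0.44, edgeR adjusted p = 0.0246, 3.38-fold). Without A1 they were 3.35 and 2.54 (edgeR adjusted p = 1.62e-06 and 3.14e-06). Neither gene was called when A2, A3, B1 or B2 was left out. The log2 fold changes in these fits were 1.75, 2.01, 2.07 and 2.16 for Cenpe and 1.53, 1.63, 1.87 and 1.63 for Cenpf. Without B1 or B2, 1 library of variation B is left. Cenpe alone gave 38.3% and 35.0% of the centromere protein counts of B1 and B2.

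Levels were compared between members only per length, as counts per kb of exon scaled to a protein-coding sum of 1000000. By the mean of the variations' means, the highest of the 39 kinesin genes were Kif11, Kif5b, Kif1c, Kif2c and Kif20a. The highest centromere proteins were Cenpe, Cenpx, Cenpb, Cenph and Cenpf. The order changed with the variation. In variation A the kinesin levels were 176 ± 58.2 for Kif1c, 150 ± 40.2 for Kif2c, 121 ± 78.5 for Kif11, 112 ± 58.8 for Kif5b and 109 ± 21.5 for Kif20a (SD, n = 3), neighbours that did not differ beyond their spread. In variation B the 5 highest were Kif11 at 344 ± 8.58, Kif5b at 255 ± 3.13, Kif1c at 179 ± 19.0, Kif21b at 148 ± 8.05 and Kif20b at 122 ± 13.5 (SD, n = 2), with Kif20a at 120 ± 8.26, Kif4 at 110 ± 6.36 and Kif2c at 100 ± 4.93 next, so that Kif11, Kif5b and Kif1c were further apart than their SD. Of centromere proteins, Cenpx led in variation A at 143 ± 85.6 (SD, n = 3) and Cenpe in variation B at 286 ± 19.6 (SD, n = 2). The deposited length joins all exons of a gene, which for Cenpa is 5860 bases where its longest coding transcript has 1466. With the transcript length in its place, 4 of the 5 highest kinesins and 3 of the 5 highest centromere proteins were the same genes. Cenpa moved from rank 7 to rank 1 of 21. Kifc1, a kinesin outside the name rule, was not ranked. Per kb of exon it stood at 84.0, 133 and 157 in A1 to A3 and at 99.2 and 118 in B1 and B2, in the range of the highest members.

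**Figure D4:**
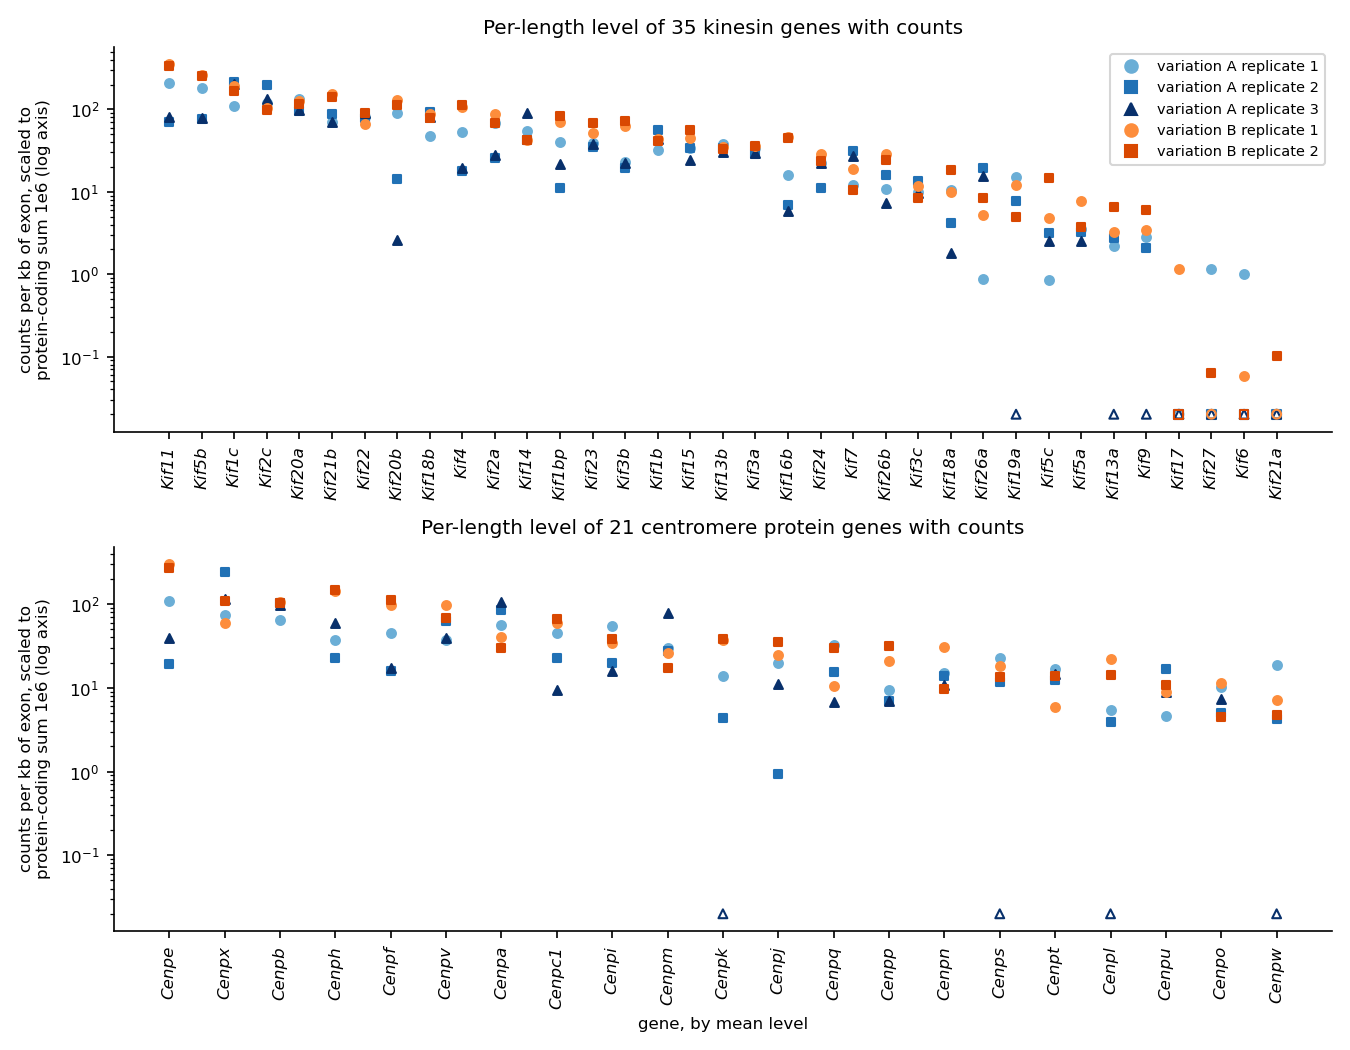
Points give the level in counts per kb of exon, scaled to a protein-coding sum of 1000000 (log y axis), of the 35 kinesin genes and 21 centromere protein genes with any count, ordered by mean level along the x axis; open points at the foot stand for 0 counts. The B libraries lie above the A libraries for Kif11 and Cenpe, which reach means of 344 and 286 in variation B.

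Fold changes followed base composition across genes. Over 9522 protein-coding genes tested, the Spearman correlation between the GC percent of the longest coding transcript and the log2 fold change was -0.53, and it was -0.51 over 30 kinesin genes and -0.42 over 21 centromere protein genes; genes share libraries and are not independent replicates. Without A1 these were -0.59 (n = 10508), -0.54 (n = 31) and -0.66 (n = 21). When protein-coding genes were split into 10 groups of nearly equal size by GC, the lowest group (median 40.1%) had a median log2 fold change of 0.93 and the highest (median 59.9%) had -1.14. Members at or below 48.1% GC, the median over the 51 tested, had a median of 0.96 (n = 26) and the others -0.15 (n = 25), against 0.65 and -0.40 for protein-coding genes on either side of the same value. Library A1 moved with this too. It was the highest of the A libraries for 20 of the 26 GC-poor members and for 9 of the 25 others, and for 73.5% and 25.0% of protein-coding genes. With the GC trend removed in each library, 6 kinesin genes were called higher (Kif16b, Kif3b, Kif4, Kif21b, Kif26b and Kif1bp) and 1 lower (Kif14), and 3 centromere protein genes higher (Cenpe, Cenpf and Cenpv) and 1 lower (Cenpa), where 10.2% and 11.2% of all genes were called higher and lower. Log2 fold change and exon length had a Spearman correlation of 0.18 over protein-coding genes, 0.17 over kinesins and 0.32 over centromere proteins.

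**Figure D5:**
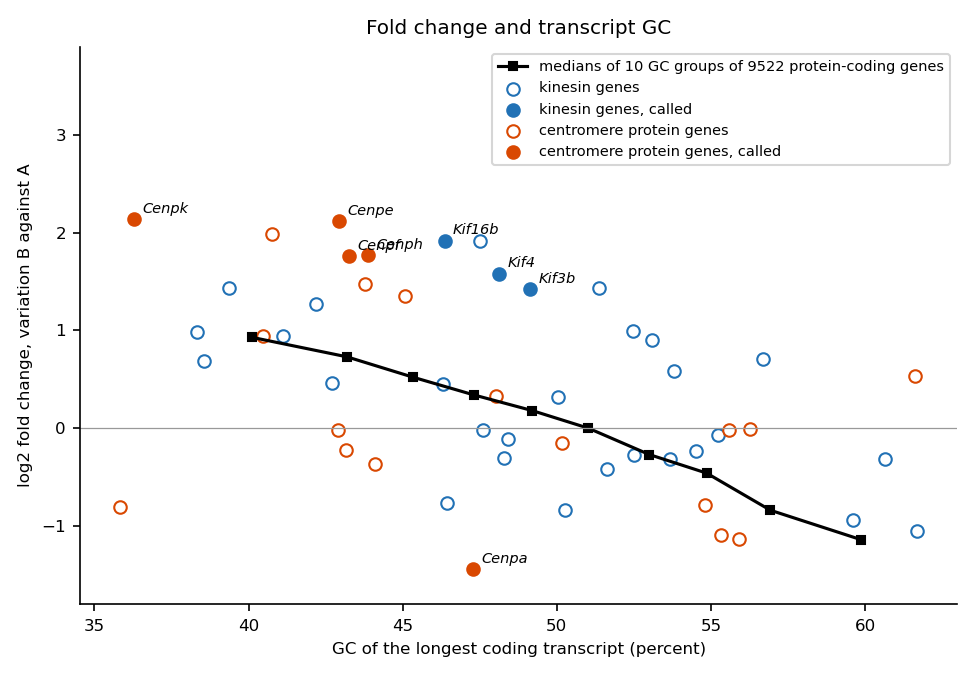
Points give the log2 fold change of variation B against variation A (y axis) against the GC percent of the longest coding transcript (x axis) for the 51 members tested, filled where called; black squares join the medians of 10 GC groups of 9522 protein-coding genes, from 0.93 to -1.14. Cenpa lies below the line of medians.

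Genes of the same machinery outside the name rule were taken from fixed lists. Of 10 outer kinetochore network genes tested, edgeR called 2 higher and 2 lower, with a median of 1.10. DESeq2 called 3 higher and 2 lower, and 6 were higher and 2 lower at an unadjusted p under 0.05. Of all genes tested edgeR called 11.0% higher and 12.4% lower, and the difference of this list from these was not tested. Nuf2, part of the microtubule-binding NDC80 complex, had 22.8, 5.45 and 7.41 CPM in A and 91.7 and 101 CPM in B (log2 fold change 2.97, SE 0.52, edgeR adjusted p = 0.00827). Ndc80 of the same complex had 15.4, 6.61 and 5.93 CPM against 32.8 and 35.2 CPM (1.80, SE 0.42, edgeR adjusted p = 0.0197). Of their partners, Spc25 had 11.9, 5.45 and 5.93 CPM against 12.4 and 20.5 CPM (1.04, SE 0.45, edgeR adjusted p = 0.12). Spc24 went the other way, with 7.94, 24.5 and 22.2 CPM in A and 5.83 and 4.83 CPM in B (-1.75, SE 0.50, edgeR adjusted p = 0.037), as did Pmf1 of the MIS12 complex (-1.71, SE 0.43, edgeR adjusted p = 0.0251). Transcript GC was 42.3% in Nuf2 and 44.1% in Ndc80, against 52.9% in Spc24 and 57.6% in Pmf1.

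In each of the other lists edgeR called at most 1 gene. These lists are too short to set against the 11.0% of all genes called higher. Of 8 spindle assembly and midzone genes 1 was called higher, Numa1, which anchors spindle poles, with 132, 128 and 123 CPM in A and 822 and 1029 CPM in B (log2 fold change 2.85, SE 0.32, edgeR adjusted p = 0.00146) at a transcript GC of 55.9%. Of 10 dynein and dynactin genes 1 was called higher, the dynein heavy chain Dync1h1 (1.72, SE 0.31, edgeR adjusted p = 0.00908), with 281, 231 and 222 CPM against 822 and 791 CPM. Incenp, the scaffold of the chromosomal passenger complex, was the 1 of 4 genes of that list called higher (1.06, SE 0.27, edgeR adjusted p = 0.0274). DESeq2 called 1 gene of the dynein list, 2 of the spindle assembly list and 1 of the passenger list higher. At an unadjusted p under 0.05 these numbers were 3, 3 and 1. None of these 3 lists had a gene called lower in edgeR or DESeq2, and 1 gene of each was lower at an unadjusted p under 0.05. In the passenger list this was the kinase gene Aurkb, at -0.98 (SE 0.28, edgeR adjusted p = 0.0367), which passed the adjusted threshold but not the 2-fold cut. The lists of kinesin partners with the Kifc motors, of spindle checkpoint genes and of other proliferation genes had 6, 6 and 5 genes tested. Of these 0 were called in either direction by edgeR or DESeq2. At an unadjusted p under 0.05, 1, 0 and 1 were higher and 0 lower. The proliferation list, whose most abundant gene was Top2a, the topoisomerase that untangles sister chromosomes, summed to a per-length level of 1360 in A1, 538 in A2 and 456 in A3 and to 1730 and 1680 in B1 and B2, so that A1 was nearer to variation B. Of the 7 genes called in these lists, 7 were also called without A1, 3 without A2 (Dync1h1, Nuf2 and Numa1), 2 without A3 or without B1 (Nuf2 and Numa1) and 1 without B2 (Numa1). With library totals Spc24 and Pmf1 were not called, and with the GC trend removed Pmf1 was not. A term for the library number in the model ended the calls of Dync1h1, Incenp, Pmf1 and Spc24, and upper-quartile factors that of Incenp. With no filter Pmf1 and Spc24 were not called and after thinning Pmf1 was not, so that of the 19 alternatives 11 ended the call of Pmf1 and 9 that of Spc24.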

How the data were processed

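Surface-seq was done on EL4 cells in 5 libraries, 3 of variation A and 2 of variation B, grouped by library name. The authors used Trimmomatic 0.36 for trimming, STAR 2.7.3a for alignment to GRCm38 and featureCounts 1.6.4 for unstranded counting on GENCODE M24 exons. The deposited values are unnormalized counts per gene. Names and types came from GENCODE M21 for 55144 genes (241 had none); GC and coding sequence came from its longest coding transcripts.

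Counts were tested with edgeR 4.0.16 (filterByExpr, TMM, quasi-likelihood F test, Benjamini-Hochberg) in R 4.3.3; the approximate SE is the log2 fold change divided by the root of F. DESeq2 1.42.0, other scalings and filters, a replicate block, length and GC trends, thinning and left-out libraries were alternatives. Tests were also run on simulated data, whose outcome is not given here. Exon overlaps used bedtools 2.31.1.

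The members and lists were chosen with earlier results of these data known. Named were members called, the 5 highest per length in each family, a fixed list of members, and up to 3 called genes per pathway list and direction; 1 pathway list is not reported here. Kif1bp, Kif5c, Kif17, Kif18a, Kif24, Kif2a, Aurkb, Spc25, Cenpn, Cenpq, the members with few or no counts, Lyz2 and the genes called only under an alternative were named after their values were seen. So were Csf1r, Itgam and Cd14.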

Additional observations from a re-analysis of the deposited data

How the results depend on the processing

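Differences of family shares kept their direction under every denominator tried, and with each library left out the kinesin difference ran from 0.125 to 0.133 percentage points and the centromere protein difference from 0.0761 to 0.0833. Counts of calls moved more, and apart from fewer libraries, fewer genes tested or the rescaling itself the cause was not tested. Kinesin genes called higher, 3 in the report, numbered 23 with library totals, 6 with the GC trend removed, 5 with that and the replicate block, 0 with the length trend removed and the replicate block, and 0 to 9 with a library left out. Kinesin genes called lower, 0 in the report, numbered 1 with the GC trend removed and 0 to 1 with a library left out. Centromere protein genes called higher, 4 in the report, numbered 11 with library totals, 2 with the length trend removed and the replicate block, and 0 to 7 with a library left out. Centromere protein genes called lower, 1 in the report, numbered 0 with library totals, with no filter, with thinning, with the replicate block alone and with the length trend and block, and 0 to 2 with a library left out.

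Library totals raised the median of all genes from 0.05 to 1.50, and with this common shift log2 fold changes of 10 named members turned sign: Cenpa (0.09), Cenpb (1.51), Cenpt (0.65), Cenpx (0.47), Kif14 (0.71), Kif1b (1.23), Kif1c (1.33), Kif20a (1.32), Kif2c (0.68) and Kif3a (1.43). The replicate block alone gave 2 kinesin genes higher, without Kif3b, and 4 centromere protein genes higher. Libraries with the same number did not deviate together (correlations -0.104 for A1 with B1 and -0.0341 for A2 with B2 over 10287 genes), so the numbers were not taken as pairs. The GC alternatives and the transcript length were chosen after the data were seen. Over single genes, 509 values stayed on their side of the threshold or near the reported count, 83 were no longer called, 22 became called, 6 turned sign and were called before or after, and 7 counts of genes moved. Thinning to the smallest total did not remove the gap in detection. After it, 6, 5 and 4 centromere protein genes had at least 10 counts in A1 to A3, and 14 and 14 in B1 and B2. For kinesins these were 22, 15 and 15 against 25 and 25. Thinning matched totals only: before it, protein-coding genes held 261148 of 1187117 counts in A3 and 13914715 of 21862003 in B1. It therefore cannot show detection at equal depth over these mRNAs.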
